A study of Homo sapiens with 12 samples.

Results

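The genes of the serine/arginine-rich (SR) proteins and of the heterogeneous nuclear ribonucleoproteins (hnRNPs) were examined by RNA sequencing in 3 established cell lines of the prostate. Members were the protein-coding rows of the expression table whose symbol begins with SRSF or HNRNP. There were 39 of them, 12 SRSF and 27 HNRNP genes, among 58302 genes of which 19817 are protein-coding. BPH-1 is a benign prostate cell line, and PC3 and DU145 are prostate cancer (PCa) cell lines. Each line was labelled wild type, was grown untreated in DMEM with fetal bovine serum and antibiotics, and was sequenced from total RNA in 4 libraries. The study screened these libraries for differences between BPH-1 and PC3. No label says that the 4 libraries of a line came from separate cultures, so p-values measure the spread between these libraries, which may be technical. Benign and malignant origin are each represented by so few lines that a difference of origin and a difference between individual lines cannot be told apart.

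SR proteins carry RNA recognition motifs and a tail rich in arginine-serine dipeptides. They bind exonic enhancers and recruit the U1 and U2 machinery to nearby splice sites. The hnRNPs coat nascent transcripts, and many of them silence exons or act as enhancers or silencers according to where they bind. SR proteins are switched by phosphorylation of the tail, and both families also act in mRNA export, stability and translation. The balance between SRSF1 and hnRNP A1 is a textbook determinant of splice site choice, and several genes of both families are often raised in tumours.

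Values are the deposited fragments per kilobase of exon, scaled to library size (FPKM). Depth, recovered from the steps between low FPKM values, was between 12950665 and 16309559 reads per library. Of 7 epithelial markers, 7 had a mean of at least 1 FPKM in BPH-1, 3 in DU145 and 4 in PC3, and the basal marker TP63 was under 0.1 FPKM in both PCa lines. KLK2 and KLK3, which mark luminal prostate cells, were under 0.1 FPKM in all 3 lines. Of 7 stromal markers, COL1A2 and COL3A1 were under 0.1 FPKM in every line, and COL1A1 alone had a mean of at least 1 FPKM, in BPH-1 (2.44 FPKM) and PC3 (3.51 FPKM). Of 7 blood and endothelial markers, CD3E and VWF were under 0.1 FPKM in every line, and those of at least 1 FPKM were CD68 (4.71, 6.17 and 10.95 FPKM in BPH-1, DU145 and PC3), PTPRC in BPH-1 (1.35 FPKM) and PECAM1 in PC3 (1.69 FPKM). The summed level of the stromal list was between 2.86 and 4.97 FPKM in BPH-1, 1.36 and 3.05 FPKM in DU145 and 3.6 and 4.84 FPKM in PC3, and that of the blood and endothelial list between 5.08 and 8.73, 5.11 and 10.2, and 8.33 and 15.1 FPKM. The summed FPKM of 12 proliferation genes was between 566 and 620 in BPH-1, 217 and 288 in DU145, and 238 and 322 in PC3, so the BPH-1 libraries were highest and did not overlap the others. The part of these lists in the results below was not tested.

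The libraries stood apart by the base composition of the genes they recovered. The median log2 level of genes with a GC content under 40%, minus that of genes over 55%, each relative to the gene's mean over all libraries, was between 1.51 and 1.72 in BPH-1, between -2.37 and 0.29 in DU145 and between -1.71 and 0.00 in PC3. BPH-1 was therefore the line richest in low-GC transcripts, and replicates 1 (-1.52) and 3 (-2.37) of DU145 lay below replicates 2 (0.29) and 4 (-0.08). Of the 36 members tested in DU145 against BPH-1, 13 lie under 40%. Each fold change below is therefore given as deposited and, where stated, after a GC correction that removed, per library, the smooth dependence of log2 FPKM on GC content. The correction also removes any difference between lines that follows GC content, and the part of base composition in each result was not tested. It changed the spread within a line too, widening it for some members and narrowing it for others. HNRNPD in DU145 went from 23.0, 24.5, 25.2 and 21.0 FPKM to 44.7, 24.2, 66.9 and 25.6 FPKM. HNRNPA3 in DU145 went from 8.78, 21.6, 6.61 and 17.3 FPKM to 17.3, 20.8, 17.6 and 20.1 FPKM.

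The sequences before the starts of 4 genes are shown first as a description, and their part in the levels below was not tested. Of these genes, HNRNPH2, SRSF11 and SRSF10 had the largest falls in DU145 against BPH-1, and HNRNPC changed in opposite directions in DU145 and PC3 as deposited. Each sequence is the 250 bases before a RefSeq transcription start of the gene, 5′ to 3′ on the gene's strand, from RefSeq on GRCh38.p14. The SRSF11 sequence lies within the annotated gene, which begins at position 70205682 of chromosome 1. Capitals mark matches on either strand to 5 motifs: the CCAAT box, the GC box with the letters GGGCGG, the TATA box with the letters TATAAA, the core bound by ETS factors with the letters CGGAAG, and the E-box with the letters CACGTG.
HNRNPH2 (chrX:101407972-101408221, plus strand): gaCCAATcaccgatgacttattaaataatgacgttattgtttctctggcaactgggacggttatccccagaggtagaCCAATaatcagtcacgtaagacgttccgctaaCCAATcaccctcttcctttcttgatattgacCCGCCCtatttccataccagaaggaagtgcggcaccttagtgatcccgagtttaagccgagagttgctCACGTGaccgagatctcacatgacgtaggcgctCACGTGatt
SRSF11 (chr1:70221130-70221379, plus strand): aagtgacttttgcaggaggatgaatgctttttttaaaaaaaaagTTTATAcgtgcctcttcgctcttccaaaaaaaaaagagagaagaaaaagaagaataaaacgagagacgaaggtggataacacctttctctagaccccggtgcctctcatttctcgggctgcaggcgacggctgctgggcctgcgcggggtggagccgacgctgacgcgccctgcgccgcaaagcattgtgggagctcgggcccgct
SRSF10 (chr1:23980328-23980577, minus strand): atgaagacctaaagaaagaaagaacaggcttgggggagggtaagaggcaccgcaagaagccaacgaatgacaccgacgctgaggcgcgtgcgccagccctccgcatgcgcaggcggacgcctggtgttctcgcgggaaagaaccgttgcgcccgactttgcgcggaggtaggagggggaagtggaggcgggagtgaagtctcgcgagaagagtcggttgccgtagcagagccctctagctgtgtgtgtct
HNRNPC (chr14:21269443-21269692, minus strand): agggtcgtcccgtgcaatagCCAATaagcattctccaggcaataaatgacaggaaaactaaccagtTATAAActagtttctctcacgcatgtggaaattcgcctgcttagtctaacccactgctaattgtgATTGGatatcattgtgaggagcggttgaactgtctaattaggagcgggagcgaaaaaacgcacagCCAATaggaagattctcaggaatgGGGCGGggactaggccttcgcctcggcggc

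The window of HNRNPH2 held CCAAT at 3 positions, a GC box and 2 E-boxes, and that of HNRNPC held CCAAT at 3 positions, a GC box and a TATA box. The window of SRSF11 held a TATA match alone, on the opposite strand, and the window of SRSF10 held none of these letters. Promoter windows that run from 250 bases before to 50 after the start were found for 35 of the 39 members, with none for HNRNPA1, HNRNPA1P48, HNRNPCL3 and SRSF2. Over these windows CCAAT was in 51.4% of members against 34.6% of 35116 promoters, GGGCGG in 62.9% against 45%, TATAAA in 14.3% against 11.5%, CGGAAG in 40% against 19.5% and CACGTG in 20% against 7.26%. The median GC content of the windows was 63.7% in members and 58.7% in all promoters. A single window per member was used, whereas the 35116 promoters were not reduced to a single window per gene. These shares are descriptions and a match is not a binding site.

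Transcript levels covered a wide range (the plot of the level of each gene in the 12 libraries). On the FPKM scale, HNRNPA1P48, HNRNPF, HNRNPK, HNRNPA2B1 and HNRNPUL2 had the highest means over the 12 libraries, from 145 down to 61.6 FPKM. The leading SR genes were SRSF9 (mean 40.7 FPKM), SRSF1 (35.0 FPKM) and SRSF6 (28.5 FPKM). At the other end, HNRNPCL2 and HNRNPCL4 had at most 2 reads in any library and HNRNPCL3 had 0 reads in all, which allows up to 3 reads in a library. SRSF12, the gene of an SR protein that represses splicing, had a mean of 0.105 FPKM. The other 35 genes had means of 2.15 FPKM or more.

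**Figure D1:**
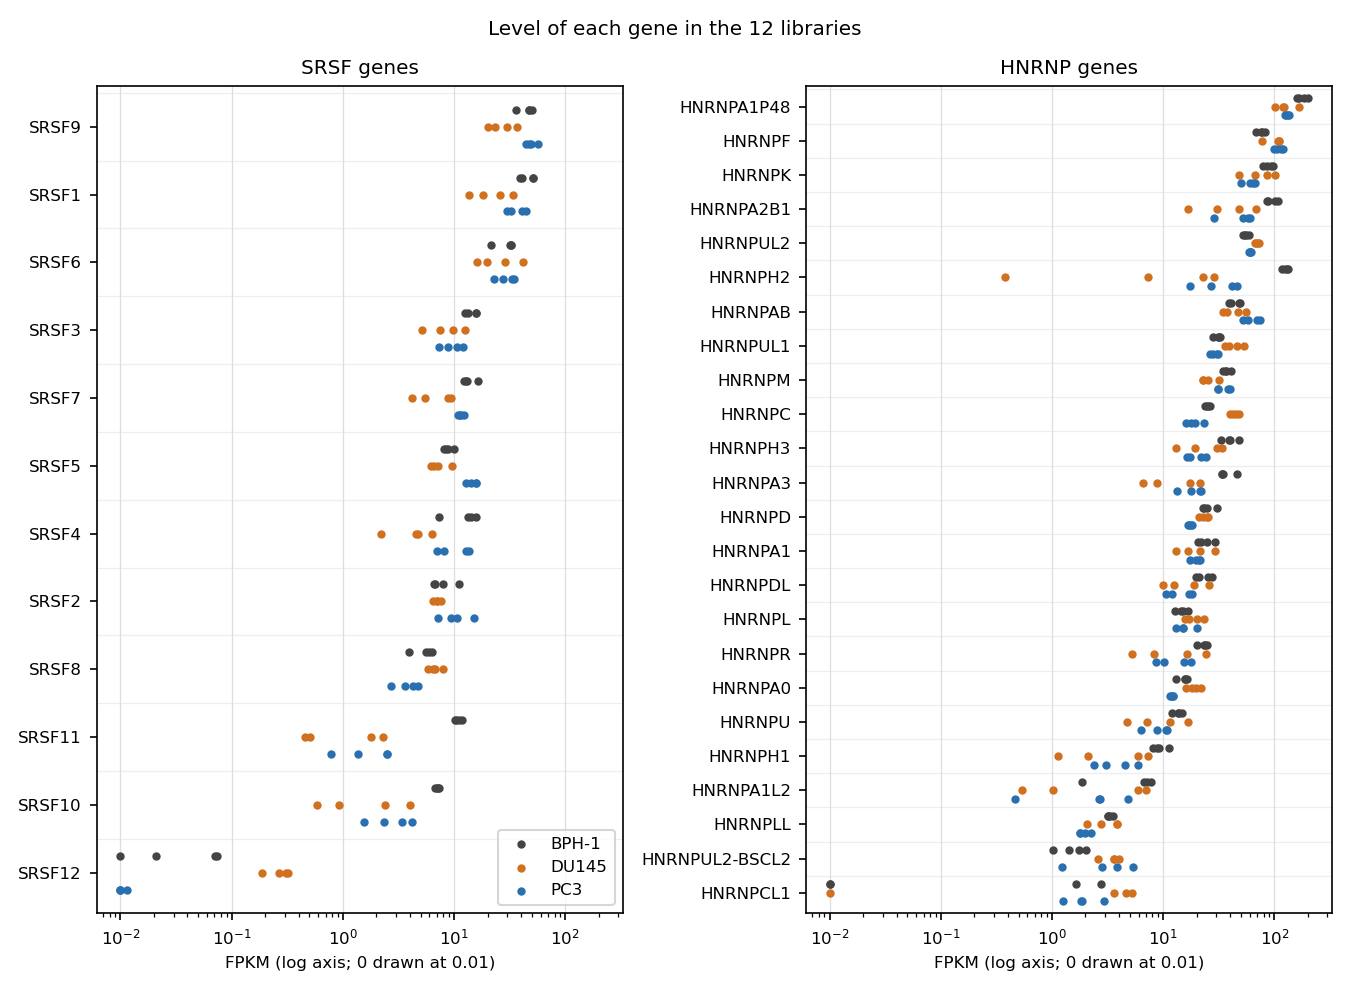
FPKM (log axis) of the SRSF genes (left) and HNRNP genes (right) in the 4 libraries of BPH-1 (grey), DU145 (orange) and PC3 (blue), ordered by mean; each point is a library, 0 is drawn at 0.01, and HNRNPCL2, HNRNPCL3 and HNRNPCL4 are left out. HNRNPA1P48 leads with a mean of 145 FPKM, and HNRNPH2 spreads from 0.379 to 28.7 FPKM among the DU145 libraries.

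The order of levels depends on the gene length used. The deposited FPKM divide by the sum of all distinct exons of a gene, so genes with many overlapping exons come out low. When reads were divided by merged exon length instead, HNRNPF led with a mean of 188, followed by HNRNPA1P48 (176) and HNRNPAB (158), HNRNPAB moved from rank 7 to rank 3, HNRNPUL2 from 5 to 11 and HNRNPH2 from 6 to 13. Ratios of a gene's FPKM between lines do not depend on this length.

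Several members share sequence with other genes, and how the reads were split between copies is not given in the sources used here. HNRNPA1P48 is typed as protein-coding but is named as a pseudogene of HNRNPA1, and 48.6% of its 50-base stretches also occur in HNRNPA1. Among the other rows of the table, 126 are named as SRSF or HNRNP pseudogenes. The summed FPKM of the 74 HNRNPA1 pseudogene rows was 510 in BPH-1, 377 in DU145 and 355 in PC3, against means of 24.2, 20.1 and 19.9 FPKM for HNRNPA1 itself. The 16 HNRNPA3 pseudogene rows summed to 531, 202 and 338 FPKM, and the 9 HNRNPC rows to 258, 464 and 178 FPKM, in the same order of lines. SRSF1 shares 50.8% of its 50-base stretches with AC015813.2, a read-through gene on the same strand with means of 2.50, 12.4 and 10.6 FPKM in BPH-1, DU145 and PC3. Of HNRNPUL2-BSCL2, 98.8% is shared with its 2 parent genes, and the 4 HNRNPCL genes share 53.9% to 94.0% with others. HNRNPH2 overlaps the read-through gene RPL36A-HNRNPH2 (9.38, 0.835 and 1.65 FPKM). Antisense neighbours overlap exons of HNRNPA2B1 (CBX3), HNRNPU (COX20), SRSF9 (GATC), SRSF2 (MFSD11) and HNRNPUL1 (TGFB1), and the use of strand in counting is not given either. The values of these genes are uncertain to that degree.

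PC3 was first set against BPH-1, the comparison that the study made. More SR and hnRNP genes were called lower than higher in PC3 as deposited. Of 35 tested members, 3 were higher (HNRNPAB, HNRNPF and SRSF5) and 17 lower. The other 15 did not pass an adjusted p of 0.05 (limma on log2(FPKM + 1)). The same sum per library gave 2 higher and 24 lower, and median-of-ratios scaling 3 and 16. But upper-quartile scaling gave 9 higher and 8 lower and the GC correction 13 higher and 8 lower. Of all 16345 genes tested, 27.2% were higher and 40.5% lower, and after the GC correction 22.9% and 43.4%. The members' median log2 fold change was -0.39, against -0.13 for all genes tested. By family, 14 of 24 HNRNP genes were lower and 2 higher as deposited, and 7 lower and 7 higher after the correction, while of 11 SRSF genes 3 were lower and 1 higher as deposited, and 1 lower and 6 higher after it. HNRNPCL2, HNRNPCL3, HNRNPCL4 and SRSF12 had too few reads to be tested.

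HNRNPH2, an X-linked member of the H/F group that binds runs of G, had 124, 118, 131 and 131 FPKM in the BPH-1 libraries and 41.1, 46.5, 27.0 and 17.6 FPKM in those of PC3. All PC3 libraries lay below all BPH-1 libraries, and the PC3 mean was 3.81-fold lower. Its log2 fold change was -1.99 (SE 0.26, adjusted p = 0.000112) as deposited and -1.34 (adjusted p = 5.53e-05) after the GC correction. SRSF11, an SR protein that contacts the 3′ splice site factor U2AF, had 11.1, 10.3, 11.8 and 10.3 FPKM in BPH-1 and 2.52, 2.51, 1.36 and 0.774 FPKM in PC3. The groups did not overlap and the PC3 mean was 6.09-fold lower. Its log2 fold change of -2.15 (SE 0.22, adjusted p = 2.20e-05) became -0.91 (adjusted p = 0.000201) after the GC correction. HNRNPH2 and SRSF11 were the 2 members that were called lower in PC3 under all 20 alternatives run.

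SRSF10, which represses splicing when dephosphorylated, had 7.13, 6.75, 6.95 and 7.29 FPKM in BPH-1 against 4.20, 3.40, 2.36 and 1.56 FPKM in PC3, again without overlap. Its log2 fold change of -1.10 (adjusted p = 0.000981) was called in 19 of 20 alternatives, the exception being the GC correction (-0.22, adjusted p = 0.12). HNRNPH1, the close relative of HNRNPH2, had 11.4, 8.16, 9.10 and 8.72 FPKM in BPH-1 and 4.50, 5.92, 3.05 and 2.36 FPKM in PC3. It fell by 1.11 on the log2 scale (adjusted p = 0.00151), and its value after the GC correction was 0.24 (adjusted p = 0.15). HNRNPA2B1, whose products act in splicing and in the sorting of RNAs, had 108, 87.7, 102 and 86.6 FPKM in BPH-1 and 58.3, 60.9, 52.1 and 28.8 FPKM in PC3. Here too the libraries of the lines were separate, with a log2 fold change of -0.97 (adjusted p = 0.00317) that became 0.10 (adjusted p = 0.42) after the GC correction. HNRNPH3, the third gene of the H group, fell by 0.97 (adjusted p = 0.000437) and remained lower after the correction (-0.57, adjusted p = 0.0028).

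The call of 8 other members turned round after the GC correction. HNRNPA0, HNRNPA3, HNRNPC, HNRNPD, HNRNPLL, HNRNPR, HNRNPU and SRSF3 were lower in PC3 as deposited, with log2 fold changes from -0.96 (HNRNPA3) to -0.32 (HNRNPA0), and were higher after the GC correction, from 0.35 (HNRNPLL) to 1.04 (HNRNPD). HNRNPU is a nuclear scaffold protein and HNRNPD (AUF1) binds AU-rich elements in mRNA 3′ ends. SRSF3, the smallest of the classical SR proteins, had 15.8, 12.7, 15.6 and 13.3 FPKM in BPH-1 and 11.9, 10.7, 7.32 and 8.76 FPKM in PC3. The PC3 values of SRSF3 all lay below those of BPH-1, and its log2 fold change was -0.54 (adjusted p = 0.0112) as deposited and 0.55 (adjusted p = 0.0115) after the correction. The deposited call of HNRNPA0 was lost without BPH-1 replicate 1, BPH-1 replicate 4 or PC3 replicate 2. Of the 12 members under 40% GC that were tested, 11 were lower as deposited. At 40% to 45% GC 5 of 12 were lower, and at 45% or more 1 of 11. Of all genes tested under 40% GC, 1880 of 2425 were lower. Above that, 1976 of 3550 were lower at 40% to 45% GC and 1073 of 3005 at 45% to 50%. The counts were 709 of 2692 at 50% to 55% and 971 of 4660 over 55%.

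3 genes were higher in PC3. SRSF5, an SR protein first described as an insulin-induced gene product, had 9.91, 8.19, 8.49 and 8.73 FPKM in BPH-1 and 15.7, 12.9, 14.2 and 15.8 FPKM in PC3. The lines did not overlap, and the rise was 0.67 on the log2 scale (SE 0.11, adjusted p = 0.000432) and 1.57 (adjusted p = 0.000126) after the GC correction, called in 19 of 20 alternatives, all except the threshold on a log2 fold change of 1. The corrected PC3 values of SRSF5 were more spread, at 14.8, 12.6, 17.5 and 27.9 FPKM. HNRNPF, the third well-expressed binder of G runs, had 77.4, 67.7, 81.9 and 75.2 FPKM in BPH-1 and 118, 106, 99.5 and 114 FPKM in PC3. It stood higher in every PC3 library, by 0.53 on the log2 scale (adjusted p = 0.00109), but by 0.25 (adjusted p = 0.0777) after the GC correction. HNRNPAB, which is known for mRNA transport, had 48.9, 39.1, 47.8 and 41.0 FPKM in BPH-1 and 69.6, 57.6, 52.1 and 74.3 FPKM in PC3. Its rise of 0.50 (adjusted p = 0.00869) was 0.01 (adjusted p = 0.95) after the correction. HNRNPH2 and HNRNPF, from the same group of proteins, thus moved in opposite directions as deposited.

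Among genes always examined, SRSF1, the founding SR protein and a proto-oncogene, had 51.0, 40.6, 51.0 and 38.8 FPKM in BPH-1 and 44.3, 40.6, 30.1 and 32.4 FPKM in PC3. These values overlapped and the log2 fold change was -0.30 (adjusted p = 0.111), with 0.53 (adjusted p = 0.00797) after the GC correction. HNRNPA1, its antagonist at 5′ splice sites, had 29.1, 22.1, 24.9 and 20.7 FPKM in BPH-1 and 20.9, 21.3, 19.8 and 17.5 FPKM in PC3, which also overlapped (log2 fold change -0.26, adjusted p = 0.0907). HNRNPK, a KH-domain protein that binds C-rich RNA, had 96.9, 93.2, 85.6 and 79.1 FPKM in BPH-1 against 64.0, 66.2, 60.7 and 49.9 FPKM in PC3. It was lower in all PC3 libraries, by a log2 fold change of -0.56 (adjusted p = 0.00223) that was 0.07 (adjusted p = 0.58) after the correction. HNRNPA1P48 had 201, 166, 184 and 160 FPKM in BPH-1 and 134, 128, 124 and 133 FPKM in PC3, a fall of 0.45 (adjusted p = 0.0029). HNRNPUL2, a relative of the scaffold protein hnRNP U, had 58.7, 55.7, 52.1 and 54.3 FPKM in BPH-1 and 60.7, 58.6, 59.9 and 62.2 FPKM in PC3 and was not called as deposited (0.13, adjusted p = 0.202), but was lower after the correction (-0.30, adjusted p = 0.0369).

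**Figure D2:**
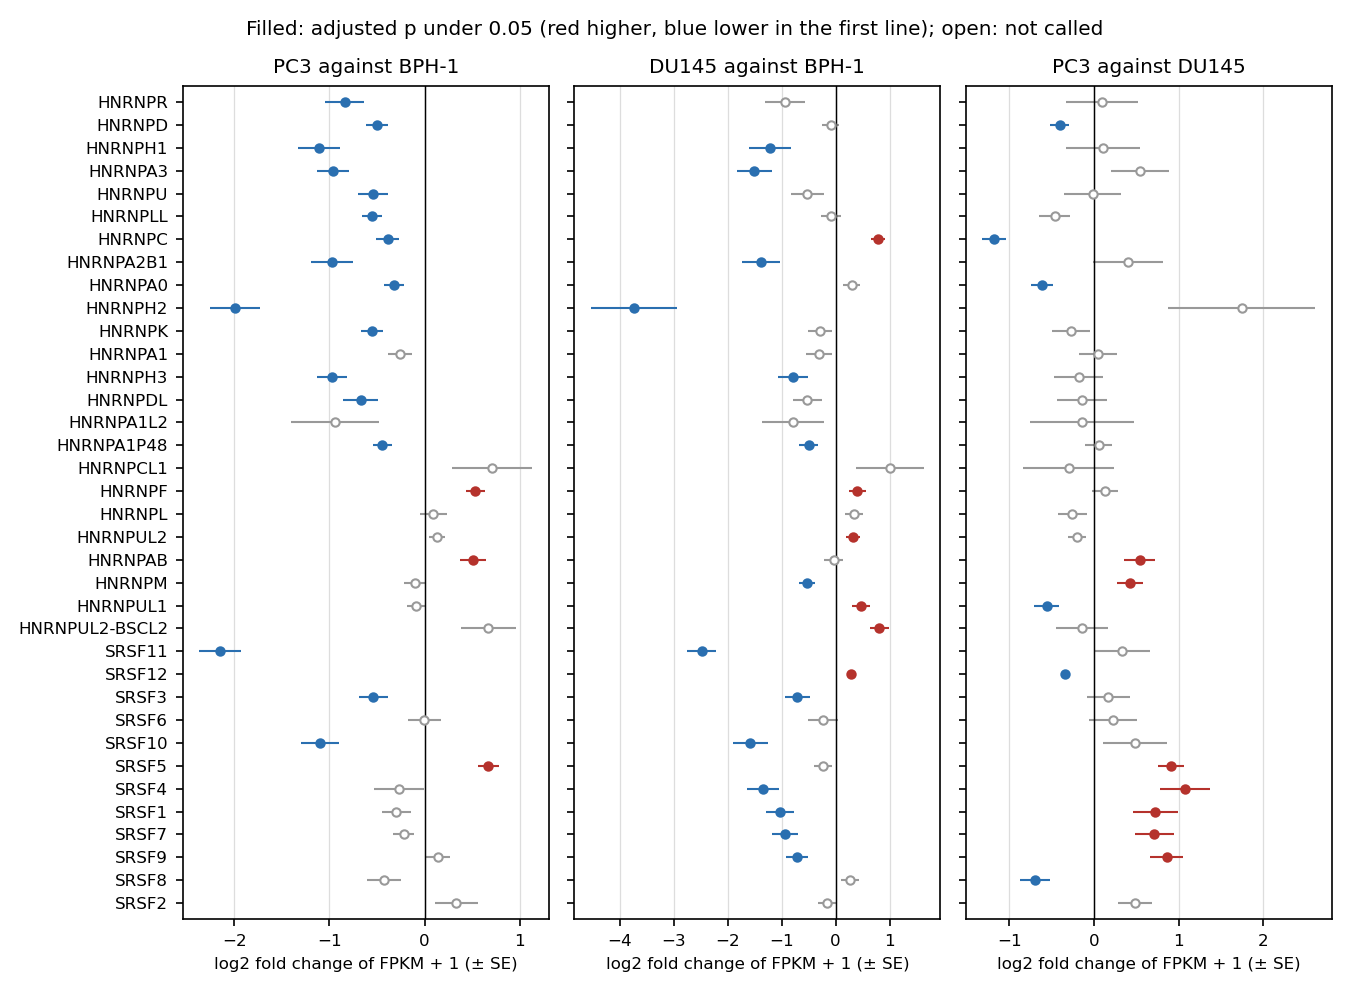
Log2 fold change of FPKM + 1 with its SE for each tested member in the 3 comparisons, genes ordered by family and by mRNA GC content (lowest at the top of each family); filled points passed an adjusted p of 0.05. Blue points are more frequent than red ones in both comparisons with BPH-1 (17 against 3 and 14 against 6), a balance that upper-quartile scaling moved to 8 against 9 and 9 against 9 and the GC correction turned to 8 against 13 and 6 against 12. The same sum per library moved it to 24 against 2 and 17 against 3.

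DU145 was compared with the same BPH-1 libraries, so this comparison is not independent of the first. As deposited, 6 of 36 tested members were higher (HNRNPC, HNRNPF, HNRNPUL1, HNRNPUL2, HNRNPUL2-BSCL2 and SRSF12), 14 were lower and 16 were not called. The same sum per library gave 3 higher and 17 lower, whereas upper-quartile scaling gave 9 and 9 and the GC correction 12 higher and 6 lower. Of all 17070 genes tested, 30.3% were higher and 32.3% lower, and 25.4% and 37.4% after the correction. The members' median log2 fold change was -0.40, against -0.03 for all genes tested. Here 7 of 12 SRSF genes were lower and 1 higher as deposited, and 2 lower and 5 higher after the correction. Of 24 HNRNP genes, 7 were lower and 5 higher as deposited, and 4 lower and 7 higher after it. Leaving out BPH-1 replicate 3, BPH-1 replicate 4 or DU145 replicate 1 each left 3 members higher. Without DU145 replicates 1 and 3 together, a choice made after seeing the data, 5 were higher and 11 lower.

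HNRNPH2 had 7.33, 28.7, 0.379 and 22.9 FPKM in the DU145 libraries, against 118 to 131 FPKM in BPH-1. Replicates 1 and 3 were lowest, the spread within DU145 was 75.8-fold, and replicate 3 had 13 reads. All 4 nevertheless lay below every BPH-1 library, and the DU145 mean was 8.50-fold lower. The log2 fold change was -3.74 (SE 0.80, adjusted p = 0.00244), -3.04 (adjusted p = 0.00548) after the GC correction and -2.25 without replicates 1 and 3. SRSF11 had 0.51, 2.29, 0.46 and 1.81 FPKM in DU145, an 8.60-fold lower mean, with replicates 1 and 3 again lowest. Its log2 fold change was -2.48 (SE 0.27, adjusted p = 3.65e-05) and -1.22 (adjusted p = 0.000281) after the correction. SRSF10 had 0.914, 3.99, 0.585 and 2.37 FPKM in DU145, no library of which reached BPH-1 (log2 fold change -1.59, SE 0.32, adjusted p = 0.00188; -0.63 and adjusted p = 0.021 after the correction). HNRNPH2, SRSF10 and SRSF11 were the 3 members lower in DU145 under all 21 alternatives run.

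**Figure D3:**
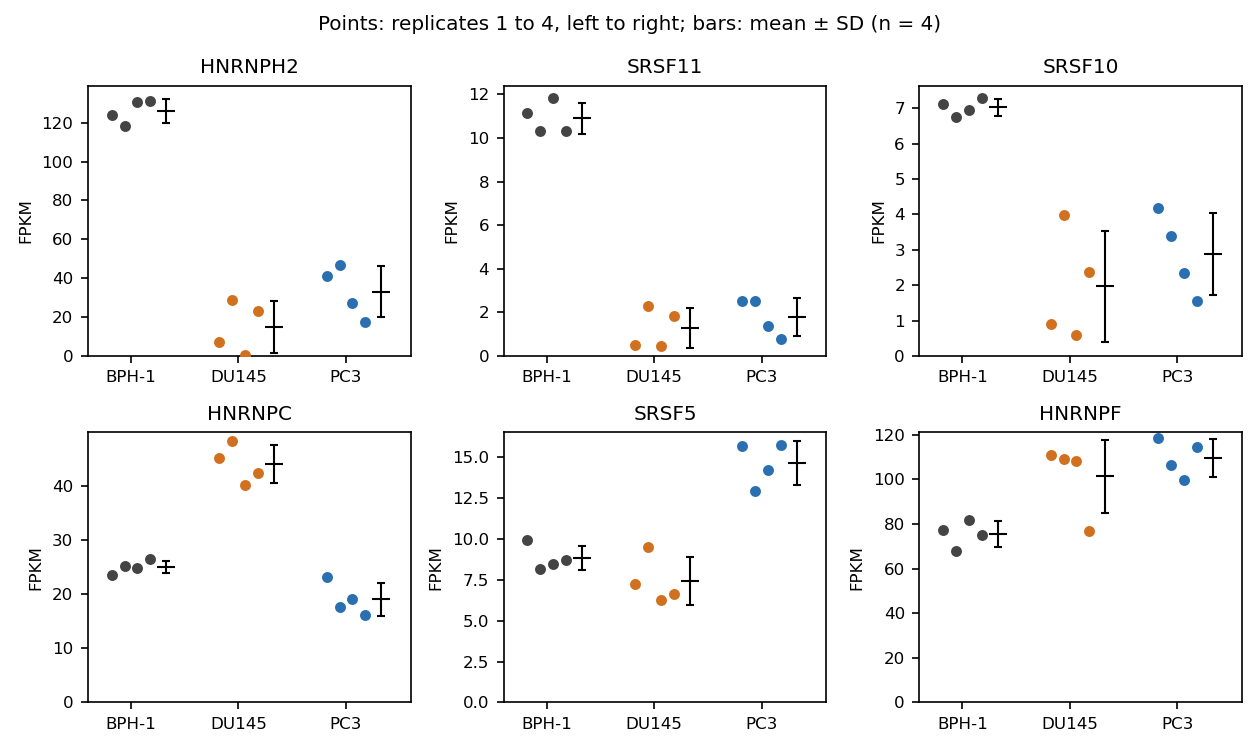
FPKM of 6 genes in each library, replicates 1 to 4 from left to right within a line, with the mean and SD (n = 4) as bars. HNRNPH2, SRSF11 and SRSF10 are highest in all BPH-1 libraries, HNRNPC is highest in DU145 (40.2 to 48.3 FPKM) and SRSF5 in PC3 (12.9 to 15.8 FPKM).

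HNRNPC, which binds U-rich stretches and forms the core of the hnRNP particle, was higher in DU145 than in BPH-1. It had 23.6, 25.1, 24.9 and 26.5 FPKM in BPH-1 and 45.3, 48.3, 40.2 and 42.4 FPKM in DU145, with no overlap and a 1.76-fold higher mean. The rise was 0.79 on the log2 scale (SE 0.13, adjusted p = 0.000568) and 2.19 (adjusted p = 8.86e-05) after the GC correction, and it was called in 20 of 21 alternatives, all except the threshold on a log2 fold change of 1. PC3, with 23.2, 17.7, 19.1 and 16.1 FPKM, was lower than BPH-1 as deposited (-0.39, adjusted p = 0.0165) and higher after the correction (0.75, adjusted p = 0.00183). HNRNPC pseudogene rows, as given above, were also highest in DU145.

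The read-through gene HNRNPUL2-BSCL2 had 1.77, 1.03, 2.03 and 1.41 FPKM in BPH-1 and 3.64, 2.61, 3.60 and 4.04 FPKM in DU145 (log2 fold change 0.81, adjusted p = 0.00302; 0.26 and adjusted p = 0.309 after the GC correction). HNRNPUL1, a relative of hnRNP U, had 32.6, 31.3, 28.2 and 31.6 FPKM in BPH-1 and 46.2, 36.1, 53.5 and 38.9 FPKM in DU145 (0.47, adjusted p = 0.0264; -0.30 and adjusted p = 0.0626). HNRNPUL2 had 72.0, 71.3, 66.6 and 67.6 FPKM in DU145 (0.33, adjusted p = 0.044; -0.32 and adjusted p = 0.139). These 3 genes have the highest GC contents but HNRNPAB and HNRNPM, and the DU145 values of each lay above all BPH-1 values. HNRNPF had 111, 109, 108 and 76.9 FPKM in DU145 and overlapped between the lines (0.41, adjusted p = 0.0491). After the correction its value was 0.04 (adjusted p = 0.828). The call of HNRNPUL1 was lost without BPH-1 replicate 3, BPH-1 replicate 4 or DU145 replicate 1, that of HNRNPUL2 without any BPH-1 library or DU145 replicate 1, 2 or 4, and that of HNRNPF without any BPH-1 library or DU145 replicate 1, 2 or 3. SRSF12 had 0 to 7 reads per library in BPH-1 and 18 to 33 in DU145, that is 0.0207, 0.0732, 0 and 0.0716 FPKM against 0.266, 0.323, 0.186 and 0.309 FPKM. The DU145 mean was 6.55-fold higher, and the log2 fold change of 0.29 (adjusted p = 0.000687) understates this because of the added 1. SRSF12 passed the read filter through its DU145 libraries alone, so its place among the higher members is a description only.

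HNRNPA3, an hnRNP A/B protein, had 46.0, 34.5, 33.9 and 33.7 FPKM in BPH-1 and 8.78, 21.6, 6.61 and 17.3 FPKM in DU145. It was lower in each DU145 library (log2 fold change -1.51, adjusted p = 0.00255), and its value after the GC correction was 0.10 (adjusted p = 0.52). HNRNPA2B1 had 30.3, 68.5, 16.9 and 47.5 FPKM in DU145, all below BPH-1 (-1.38, adjusted p = 0.00699; -0.06 and adjusted p = 0.72). SRSF4, a large SR protein, had 7.37, 15.8, 14.2 and 13.5 FPKM in BPH-1 against 4.69, 6.38, 2.18 and 4.54 FPKM in DU145 (-1.35, adjusted p = 0.00287; -0.33 and adjusted p = 0.263). SRSF1 had 18, 33.7, 13.7 and 25.8 FPKM in DU145 and did not reach its BPH-1 values (-1.03, adjusted p = 0.00615; 0.03 and adjusted p = 0.853). HNRNPM, which acts in epithelial-mesenchymal splicing, was lower both as deposited (-0.53, adjusted p = 0.0123) and after the correction (-1.26, adjusted p = 0.00168), with 41.0, 34.7, 36.8 and 36.5 FPKM in BPH-1 and 22.7, 31.6, 25.3 and 23.0 FPKM in DU145. SRSF3 (7.54, 12.6, 5.15 and 9.75 FPKM in DU145) was lower as deposited (-0.71, adjusted p = 0.0245) and higher after the correction (0.60, adjusted p = 0.0026), and leaving out BPH-1 replicate 1, BPH-1 replicate 3 or DU145 replicate 1 ended the deposited call.

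HNRNPA1 (16.6, 29.1, 13.0 and 21.6 FPKM in DU145; log2 fold change -0.31, adjusted p = 0.284) and HNRNPK (67.1, 101, 47.7 and 85.4 FPKM; -0.28, adjusted p = 0.292) overlapped with BPH-1 and were not called as deposited. After the correction HNRNPK was called higher (0.55, adjusted p = 0.00257) and HNRNPA1 was not called (0.30, adjusted p = 0.0669). HNRNPA1P48 had 119, 166, 101 and 123 FPKM (-0.50, adjusted p = 0.0297), which overlapped, and the call was lost without BPH-1 replicate 1 or 3 or DU145 replicate 1, 3 or 4. In each of these 3 genes DU145 replicates 1 and 3 were the lowest of the line, as they were for HNRNPH2. HNRNPH1 (-1.21, adjusted p = 0.0211), HNRNPH3 (-0.79, adjusted p = 0.031), SRSF7 (-0.93, adjusted p = 0.00655) and SRSF9 (-0.71, adjusted p = 0.0127) were the remaining members called lower, and none of them was called after the GC correction (adjusted p from 0.183 to 0.937). The deposited call of HNRNPH1 was lost without BPH-1 replicate 1 or DU145 replicate 1, and that of HNRNPH3 without BPH-1 replicate 1, 2 or 3 or DU145 replicate 1 or 3.

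**Figure D4:**
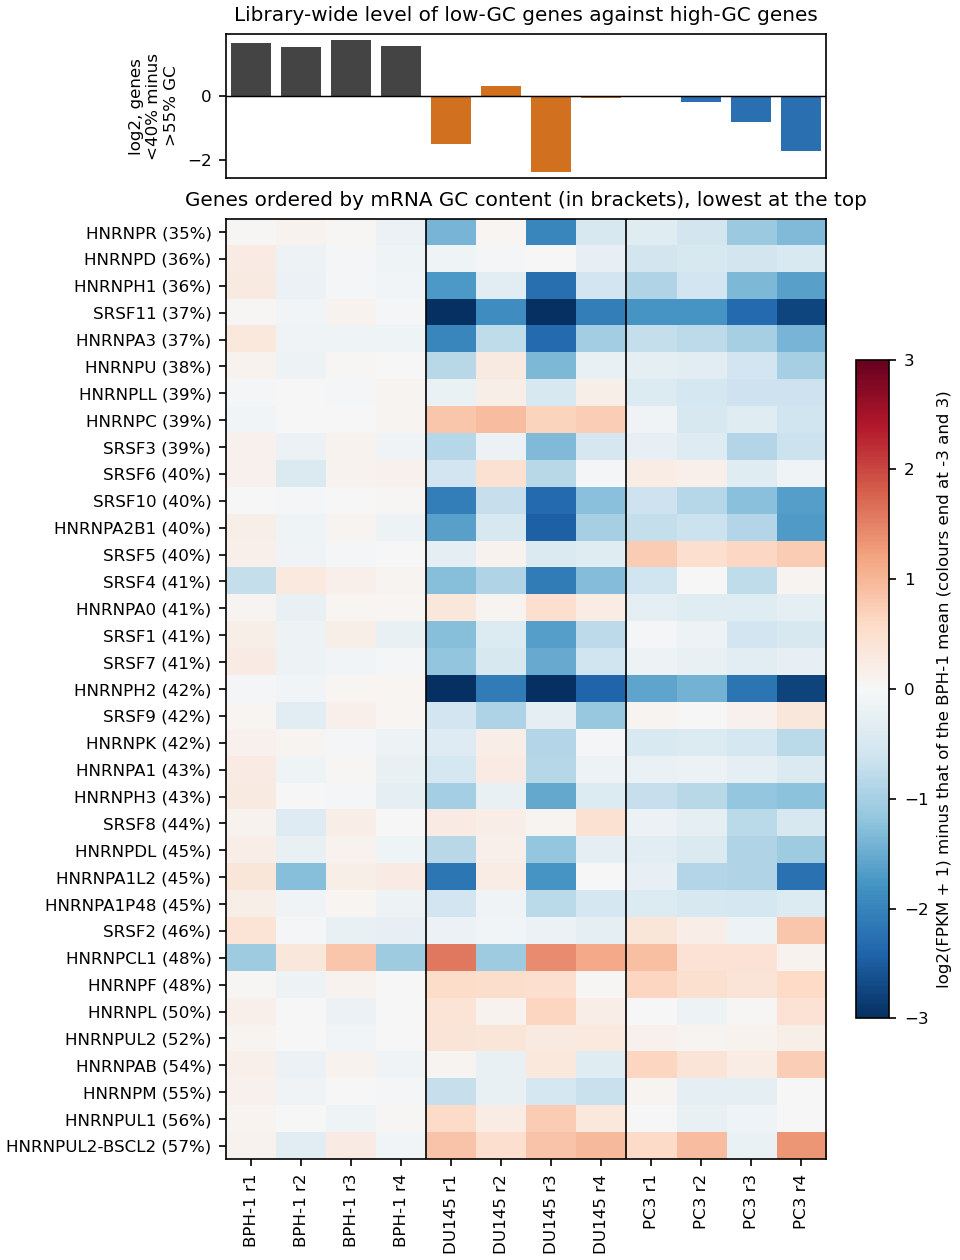
Top: for each library, the median log2 level of genes under 40% GC minus that of genes over 55% GC. Bottom: log2(FPKM + 1) of each member with a mean of at least 1 FPKM, minus that of the BPH-1 mean, ordered by mRNA GC content; the libraries with the lowest bars, DU145 replicates 1 (-1.52) and 3 (-2.37) and PC3 replicate 4 (-1.71), have the darkest blue among low-GC members, while HNRNPC stays red in all DU145 libraries and SRSF5 in all PC3 libraries.

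Spread within a line differed between genes. The ratio of the highest to the lowest library in BPH-1 was 1.08 to 1.12 for SRSF10, HNRNPH2, HNRNPC and HNRNPLL, but 2.14 for SRSF4 and 4.20 for HNRNPA1L2. In DU145 the ratio was 75.8 for HNRNPH2 and 13.1 for HNRNPA1L2, with GC contents of 42.1% and 45%, and 6.83 for SRSF10, 6.36 for HNRNPH1, 4.98 for SRSF11 and 4.64 for HNRNPR, all under 40% GC, but 1.08 for HNRNPUL2 and 1.20 for HNRNPC and HNRNPD. In PC3 it was 10.4 for HNRNPA1L2, 4.39 for HNRNPUL2-BSCL2, 3.25 for SRSF11, 2.69 for SRSF10 and 2.65 for HNRNPH2, and 1.06 for HNRNPUL2 and HNRNPA0. The members' summed FPKM was between 1114 and 1302 in BPH-1, 749 and 1083 in DU145, and 849 and 1011 in PC3, the lowest being DU145 replicate 3. As a share of all FPKM this was 0.456% to 0.522%, 0.257% to 0.374% and 0.277% to 0.345%. Mitochondrial genes, which enter the same total, took 25.0% to 27.5% of FPKM in BPH-1, 25.8% to 39.7% in DU145 and 27.4% to 35.0% in PC3, and their part in this share was not tested. Whether fewer transcripts per cell or another makeup of the RNA pool lowers such a share cannot be told apart in bulk libraries.

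PC3 and DU145 were compared directly. 7 of 36 tested members were higher in PC3 (HNRNPAB, HNRNPM, SRSF1, SRSF4, SRSF5, SRSF7 and SRSF9), 6 were lower (HNRNPA0, HNRNPC, HNRNPD, HNRNPUL1, SRSF8 and SRSF12) and 23 were not called, with 5 higher and 6 lower after the GC correction. Over the 16210 genes tested 20% were higher and 28.3% lower, and after the correction 24.9% and 31.0%. Of the 7 higher members 5 were SRSF genes, among 12 tested. The count of higher members fell to 3 without DU145 replicate 1, PC3 replicate 1, PC3 replicate 2 or PC3 replicate 4 and to 4 without DU145 replicate 4. Without DU145 replicates 1 and 3 together it was 3, with 9 lower.

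SRSF5 was higher in all PC3 libraries (12.9 to 15.8 FPKM) than in any of DU145 (7.22, 9.52, 6.26 and 6.64 FPKM), by 0.91 on the log2 scale (SE 0.15, adjusted p = 0.0011), with 0.69 (adjusted p = 0.0645) after the GC correction. SRSF4 had 8.06, 12.9, 7.09 and 13.5 FPKM in PC3, above each DU145 value (1.08, adjusted p = 0.0137; 0.91 and adjusted p = 0.0351 after the correction). SRSF9, a small SR protein, had 47.5, 44.8, 49.0 and 57.4 FPKM in PC3 and 29.8, 23.4, 37.1 and 20 FPKM in DU145, again without overlap (0.86, adjusted p = 0.00541; 0.65 and adjusted p = 0.216). SRSF7, an SR protein with a zinc knuckle, had 12.2, 11.6, 10.8 and 11.4 FPKM in PC3 and 5.43, 9.42, 4.15 and 8.73 FPKM in DU145 (0.71, adjusted p = 0.0282; 0.52 and adjusted p = 0.0182). The deposited call of SRSF7 was lost without DU145 replicate 1 and without any of the 4 PC3 replicates. The calls of SRSF1 (0.73, adjusted p = 0.0481), HNRNPM (0.43, adjusted p = 0.0446) and HNRNPAB (0.54, adjusted p = 0.0384), whose libraries overlapped between the lines, did not hold when single libraries were left out: those of SRSF1 and HNRNPM were lost without any library except DU145 replicate 2, and that of HNRNPAB without DU145 replicate 1, 2 or 4 or PC3 replicate 1, 2 or 4.

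HNRNPC was 2.31-fold lower in PC3 than in DU145, with no overlap. Its log2 fold change of -1.18 (SE 0.14, adjusted p = 0.000136) and of -1.44 (adjusted p = 0.00242) after the GC correction made it the member called in all 21 alternatives of this comparison. SRSF8, an intronless retrocopy of the SRSF2 group, had 4.75, 4.25, 2.69 and 3.63 FPKM in PC3 and 6.71, 6.47, 5.86 and 7.93 FPKM in DU145, separate between the lines (-0.69, adjusted p = 0.00939; -0.82 and adjusted p = 0.00408). HNRNPA0 had 12.2, 11.5, 11.7 and 12.3 FPKM in PC3 and 19.6, 16.1, 22.1 and 18 FPKM in DU145 (-0.62, adjusted p = 0.00379; -0.86 and adjusted p = 0.0706). HNRNPD had 17.0, 17.6, 16.8 and 18.1 FPKM in PC3 and 23.0, 24.5, 25.2 and 21.0 FPKM in DU145 (-0.41, adjusted p = 0.0162; -0.58 and adjusted p = 0.195). HNRNPUL1 had 30.6, 26.3, 28.1 and 31.3 FPKM in PC3, below all DU145 libraries (-0.56, adjusted p = 0.0129; -0.36 and adjusted p = 0.0739). SRSF12 had 0, 0, 1 and 0 reads in PC3 against 18 to 33 in DU145 (-0.34, adjusted p = 0.000226). Here too it passed the read filter through its DU145 libraries alone, so its place among the lower members is a description only. HNRNPH2 (1.75, SE 0.87, adjusted p = 0.129), SRSF11 (0.34, SE 0.33, adjusted p = 0.441) and SRSF10 (0.49, SE 0.38, adjusted p = 0.323), lower in both PCa lines than in BPH-1, were not called between them.

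**Figure D5:**
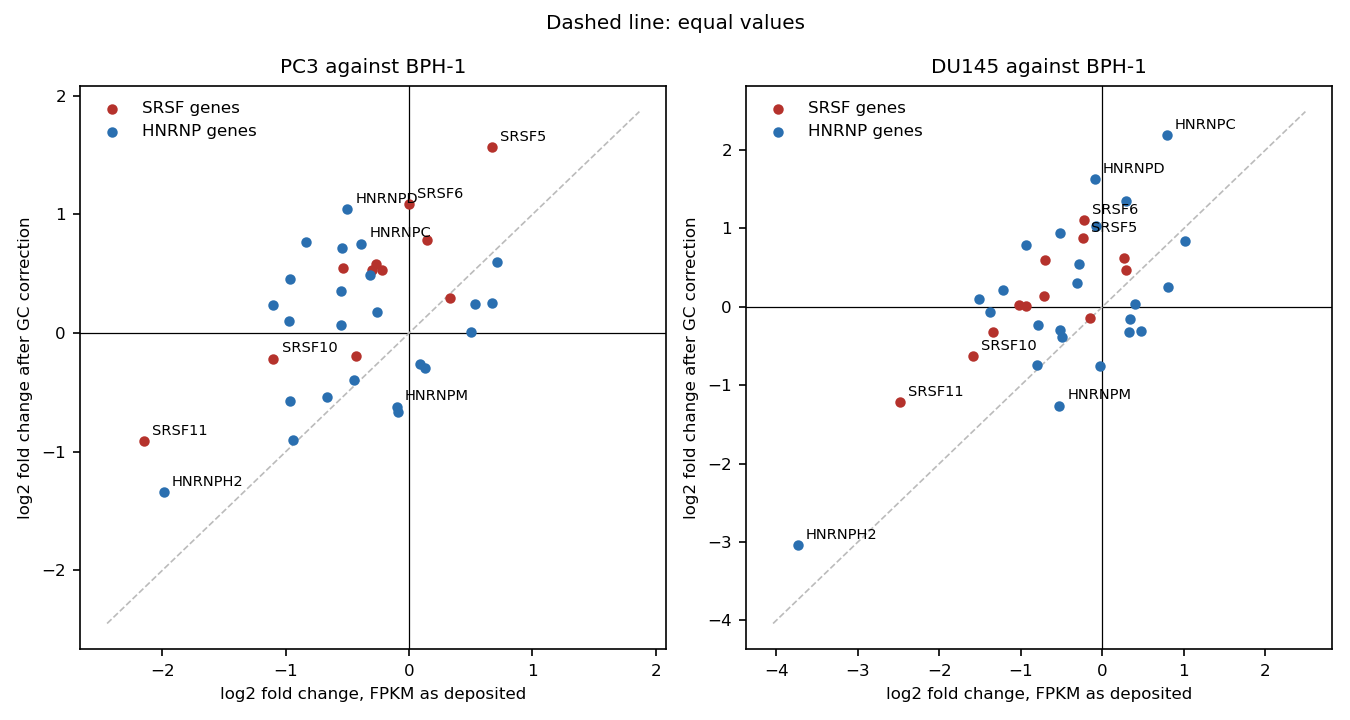
Log2 fold change of each tested member after the GC correction (vertical) against that of the deposited FPKM (horizontal) for the 2 comparisons with BPH-1, SRSF genes in red and HNRNP genes in blue. Most points lie above the dashed line of equal values, HNRNPH2 and SRSF11 stay low on both axes (-1.99 and -1.34, -2.15 and -0.91 in PC3), and SRSF5 in PC3 and HNRNPC in DU145 stay high.

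Some members were called after the GC correction alone. In PC3 against BPH-1 these were SRSF1, SRSF6, SRSF7 and SRSF9 (0.78, adjusted p = 0.00763), which were higher, and HNRNPM (-0.62, adjusted p = 0.00338), HNRNPUL1 (-0.66, adjusted p = 0.000862) and HNRNPUL2, which were lower. In DU145 against BPH-1, HNRNPA0 (1.35, adjusted p = 0.00564), HNRNPD, HNRNPK, HNRNPLL, HNRNPR, HNRNPU, SRSF5, SRSF6 and SRSF8 (0.63, adjusted p = 0.0112) were higher and HNRNPAB (-0.75, adjusted p = 0.000816) was lower. In PC3 against DU145, HNRNPA3 (0.36, adjusted p = 0.0322) was higher and HNRNPH3 (-0.34, adjusted p = 0.0484), HNRNPK (-0.48, adjusted p = 0.00474) and HNRNPLL (-0.68, adjusted p = 0.00824) were lower. SRSF2, the SC35 protein of nuclear speckles, had 11, 7.87, 6.76 and 6.65 FPKM in BPH-1, 7.05, 7.63, 6.98 and 6.49 FPKM in DU145 and 10.6, 9.46, 7.11 and 15.2 FPKM in PC3, overlapping throughout. SRSF6 was at 21.6 to 32.6 FPKM in BPH-1, 16.1 to 41.2 FPKM in DU145 and 22.9 to 34.7 FPKM in PC3, and was not called in any comparison as deposited, but was higher than BPH-1 after the GC correction in PC3 (1.09, adjusted p = 0.000559) and in DU145 (1.11, adjusted p = 0.000171). HNRNPL, which binds CA repeats, was at 12.8 to 16.6, 15.8 to 23.5 and 13.1 to 20.2 FPKM in the same order of lines and was called in no comparison. HNRNPDL, a relative of HNRNPD, was lower in PC3 than in BPH-1 (-0.67, adjusted p = 0.00933; -0.54 and adjusted p = 0.0139 after the correction) and uncalled elsewhere. HNRNPA1L2, an HNRNPA1-like gene with 18 to 361 reads per library, and HNRNPCL1, with 0 to 95 reads, had SEs of 0.42 or more and were not called.

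Genes that act on or beside these proteins were described by list. Of 17 tested kinases, phosphatases, methyltransferases and importins of SR proteins and hnRNPs, 5 were higher and 8 lower in PC3 than in BPH-1, and 2 higher and 8 lower in DU145. After the GC correction 1 was higher and 5 lower in PC3, and 0 and 9 in DU145. These and the counts of the lists that follow are to be read against the shares of all genes called, which were 27.2% higher and 40.5% lower in PC3 against BPH-1, 30.3% and 32.3% in DU145 against BPH-1 and 20% and 28.3% in PC3 against DU145. SRPK1, the main cytoplasmic kinase of SR proteins, was lower in PC3 (11.6 ± 4.8 against 23.9 ± 2.6 FPKM, SD, n = 4; adjusted p = 0.0092) and in DU145 (8.49 ± 6.6 FPKM, SD, n = 4; adjusted p = 0.0113), also after the GC correction (adjusted p = 0.00769 and 0.00716). CLK1, a nuclear kinase of the same tails, was lower in both (log2 fold changes -1.05 and -0.93) but not after the correction (-0.05 and 0.15). PPP1CB, a catalytic subunit of protein phosphatase 1, fell from 20.8 FPKM to 3.63 FPKM in PC3 and 3.55 FPKM in DU145, and PRPF4B, a splicing kinase, from 9.99 FPKM to 2.24 FPKM and 0.886 FPKM, each called also after the correction. TNPO2, an importin of hnRNPs, was higher in PC3 (22.3 against 7.76 FPKM, log2 fold change 1.41, adjusted p = 1.81e-06), and its paralogue TNPO1 was lower (5.55 against 27.1 FPKM, -2.29, adjusted p = 0.000559). PPP1CA rose in PC3 (0.69) and CLK2 (0.90) and CLK3 (0.41) in DU145, and none of these 3 calls held after the correction.

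SR-related and other RS-domain proteins were lower in 17 and higher in 3 of 30 tested genes in PC3 against BPH-1, with a median log2 fold change of -0.45. In DU145 21 were lower and 1 was higher, with a median of -1.12, and after the GC correction 23 were lower and 2 higher (median -0.98). U2SURP, an RS protein of the U2 particle, went from 20.2 FPKM in BPH-1 to 1.26 FPKM in PC3 and 1.95 FPKM in DU145 (log2 fold changes -3.34 and -3.01; -2.11 and -1.63 after the correction). PNN (pinin) went from 89.1 FPKM to 14.4 FPKM and 8.04 FPKM (-2.75 and -3.84; -1.85 and -2.83). TRA2B, a close relative of the SR proteins, was lower in both lines (-0.43 and -0.81). After the correction it was higher in PC3 (0.47, adjusted p = 0.0112) and was not called in DU145 (0.305, adjusted p = 0.176). DDX23, an RS-domain helicase, was higher in PC3 (0.92, adjusted p = 0.000344; 0.48 after the correction), as was SCAF1 (0.87) as deposited only. Between PC3 and DU145, 8 were higher in PC3, led by PRPF38A (1.37) and SCAF1 (1.14), and 1 was lower.

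Of 23 tested hnRNP proteins under other gene names, 6 were higher and 9 lower in PC3, 5 and 9 in DU145, and 3 and 4 in PC3 against DU145, and after the correction 8 and 10, 5 and 7, and 4 and 4. The shares in PC3 against BPH-1 were near those of all genes. PTBP1, a repressor of many exons, was not called against BPH-1 as deposited (-0.21 in PC3 and 0.35 in DU145) and was lower in both after the GC correction (-1.02 and -0.53). PTBP3 fell from 13.9 FPKM to 1.58 FPKM in PC3 and 2.78 FPKM in DU145, and MATR3 from 10.0 FPKM to 1.77 FPKM and 1.38 FPKM, also after the correction (adjusted p from 0.000418 to 0.0442). PCBP4 (1.34) and GRSF1 (0.85) rose most in PC3, and PCBP2 (1.34) and CIRBP (1.30) in DU145, all 4 being called after the correction too. In the direct comparison of PC3 with DU145, GRSF1 (1.23) and RBMXL1 (0.79) were higher, and CIRBP (-1.27) and TAF15 (-0.81) lower.

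Among tissue-regulated splicing factors, ESRP1, which directs epithelial exon choice, was at 11.9 ± 1.4 FPKM (SD, n = 4) in BPH-1, 0.384 ± 0.19 FPKM in DU145 and 0.0506 ± 0.013 FPKM in PC3 (log2 fold changes -3.22 and -3.61, adjusted p = 4.22e-07 and 2.30e-08). Its paralogue ESRP2 was at 8.61, 1.26 and 6.89 FPKM, lower in DU145 (-2.08, adjusted p = 2.81e-06) and higher in PC3 than in DU145 (1.8, adjusted p = 1.59e-05). In PC3 against BPH-1, ESRP2 was not called as deposited (-0.29, adjusted p = 0.0814) but was lower after the GC correction (-0.95, adjusted p = 2.31e-05). After the correction ESRP2 stayed lower in DU145 (-2.74), and ESRP1 stayed lower in DU145 (-2.80) and PC3 (-3.24). MBNL2 fell from 11 FPKM to 1.07 FPKM in DU145 and 0.476 FPKM in PC3, also after the correction (-1.35 and -1.95). KHDRBS3 was listed at 0 in all BPH-1 libraries and at 0.439 FPKM in DU145 and 3.31 FPKM in PC3. KHDRBS3 passed the read filter against BPH-1 through its PCa libraries alone, so its place among the higher genes is a description only. RBFOX2 was higher in DU145 than in BPH-1 (0.57), and RBFOX2 (-0.74) and TIAL1 (-0.76) were lower in PC3 than in DU145. In all, with KHDRBS3 included, 2 of 18 were higher and 8 lower in PC3 against BPH-1, and 4 and 9 of 19 in DU145. Between the PCa lines 5 and 4 of 18 were higher and lower, and after the correction the counts were 3 and 8, 5 and 10, and 5 and 5.

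Of 39 tested core spliceosome subunits, 9 were higher and 15 lower in PC3 against BPH-1, 10 and 12 in DU145 against BPH-1, and 6 and 11 in PC3 against DU145. After the correction the counts were 8 and 15, 8 and 18, and 7 and 10, and the median log2 fold change in DU145 against BPH-1 went from 0.11 to -0.11. The shares as deposited lie near those of all genes in PC3 against BPH-1. PRPF31 (1.21) and EFTUD2 (1.05), of the U4/U6.U5 particle, were higher in PC3, and CDC5L (-2.55) and SF3B1 (-1.67), a subunit of the U2 particle, were lower. CDC5L (-2.62) and SF3B1 (-2.78) were the largest falls in DU145 too, where SF3B4 (1.11) and SF1 (1.08) were the largest rises, as deposited only. Between the PCa lines PRPF31 (1.27) and SF3B5 (1.09) were higher in PC3, and SF3B4 (-1.30) and SF3A2 (-0.96) lower. Of 12 proliferation genes, 1 was higher and 9 lower in PC3 than in BPH-1, and 0 and 8 in DU145.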

How the data were processed

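RNA from BPH-1, DU145 and PC3 cells (4 libraries each) was sequenced from NEB libraries. The submitters' processing notes name CASAVA 1.8, HISAT2 2.1.0, edgeR and GRCh38/hg38, and the counting program and the use of strand are not given in the sources used here. The authors deposited normalized values with no unit in the header, which have the form of FPKM. With gene length as the sum of the distinct exons of GENCODE 29, 95.7% to 96.4% of low values came out as whole reads (within 0.01 of a read), which gave each library's depth, and for 6 members the length was taken from the steps of the values. All 12 columns were used, and 263 genes without a length were left out of the fits.

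limma 3.58.1 (R 4.3.3, trend) was fitted to log2(FPKM + 1) of the 2 lines compared. A gene was tested if 4 libraries held the equivalent of 10 reads at median depth and all libraries together held 15. P-values were adjusted by Benjamini-Hochberg over all genes tested, and called at 0.05. The members and lists were chosen with earlier results of these data known. Values per library are given for, in each comparison, the 5 largest rises and falls among called members without overlap, the 5 members of highest mean FPKM, and SRSF1, SRSF3, HNRNPA1, HNRNPA2B1, HNRNPC and HNRNPK, and in part for others. In other lists, the 2 largest rises and falls per comparison among called genes with a mean of at least 1 FPKM were named, and SRPK1, CLK1, TRA2B, PTBP1, ESRP1 and ESRP2 always.

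The GC correction divided out each library's spline of log2 FPKM against the GC content of a gene's longest GENCODE 29 transcript (5 degrees of freedom, genes with at least 50 reads on average). The fit and the correction were tested on simulated data with either no GC trend or a trend shared by all libraries of a line. A trend that differs within a line, as in DU145 and PC3 here, was not simulated. Other alternatives were 2 other filters, a pseudocount of 0.1, a replicate block, 1 fit over 3 lines, 3 scalings, voom on recovered reads, other thresholds and leaving out libraries. Replicates of a line differed by more than counting noise in all 18 pairs. Tables were made with Python 3.11.15, pandas 2.3.3, numpy 2.4.6 and matplotlib 3.10.9.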

Additional observations from a re-analysis of the deposited data

Results flagged for a closer look

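In 8 of 111 groups of 4 libraries (a member in a line), the highest or lowest library lay apart from the other 3 by Dixon's test, where chance alone gives about 5.55. HNRNPA0 was lowest in BPH-1 replicate 2 (12.93 FPKM, against 15.77 to 16.27 FPKM in the other libraries), and so was SRSF6 (21.63 FPKM, against 31.98 to 32.61 FPKM). HNRNPA3 was highest in BPH-1 replicate 1 (45.99 FPKM, against 33.71 to 34.46 FPKM). HNRNPF was lowest in DU145 replicate 4 (76.86 FPKM, against 108.3 to 111 FPKM).

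The other 4 rest on 1 or 2 reads in a library while the rest of the line had 0. These were HNRNPCL2 in BPH-1 replicate 3 (0.1122 FPKM) and in DU145 replicate 2 (0.05338 FPKM), HNRNPCL4 in PC3 replicate 3 (0.0817 FPKM) and SRSF12 in PC3 replicate 3 (0.0115 FPKM).

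HNRNPC differed between the PCa lines: the difference of their changes from BPH-1, tested as PC3 against DU145, was -1.178 on the log2 scale (limma, adjusted p = 0.000136), being lower in 4 of 4 PC3 libraries than in any DU145 library.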

How the results depend on the processing

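Under upper-quartile scaling, members higher and lower were 9 and 8 in PC3 against BPH-1, 9 members were lower in DU145 against BPH-1, and 3 were lower in PC3 against DU145. The GC correction gave 13 and 8 in PC3 against BPH-1 and 12 and 6 in DU145 against BPH-1. The same sum per library gave 2 higher and 24 lower members in PC3 against BPH-1, and 3 and 17 in DU145 against BPH-1. In PC3 against DU145 it gave 4 higher and 6 lower. With median-of-ratios scaling 3 members were higher in DU145 against BPH-1. These scalings shift all genes: the median log2 fold change of PC3 against BPH-1 was -0.13 as deposited, -0.29 with the same sum, -0.07 with median-of-ratios and 0.10 with upper-quartile scaling, and members' medians were -0.39, -0.65, -0.29 and 0.01. In DU145 against BPH-1 the medians of all genes were -0.03, -0.17, -0.03 and 0.13. A log2 fold change over 1 left 0 higher and 4 lower in PC3 against BPH-1, 0 and 8 in DU145 against BPH-1, and 1 and 1 in PC3 against DU145. With the stricter filter 3 members were higher in DU145 against BPH-1, and without a filter 4 were higher in PC3 against DU145. Causes were not tested, except that the filters change the genes tested and the adjustment.

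Leaving out each library in turn gave 3 to 4 higher and 16 to 19 lower members in PC3 against BPH-1, 3 to 6 and 10 to 17 in DU145 against BPH-1, and 3 to 6 and 6 to 7 in PC3 against DU145. Without DU145 replicates 1 and 3, chosen after seeing the data, 3 were higher and 9 lower in the last. The replicate numbers do not pair the libraries (correlations of same-numbered deviations from -0.695 to 0.558, 2 of 12 over 0.1). With the replicate number as a block, 3 members were higher in DU145 against BPH-1 in place of 6, and 5 higher and 5 lower in PC3 against DU145.

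Turned values of called members were, in PC3 against BPH-1 under upper-quartile scaling, HNRNPA0 (0.064) and HNRNPC (0.0055). Under the GC correction they were HNRNPA0 (0.49), HNRNPA2B1 (0.10), HNRNPA3 (0.46), HNRNPC (0.75), HNRNPD (1.04), HNRNPH1 (0.24), HNRNPK (0.067), HNRNPLL (0.35), HNRNPR (0.77), HNRNPU (0.72), HNRNPUL2 (-0.30), SRSF1 (0.53), SRSF3 (0.55), SRSF6 (1.09) and SRSF7 (0.54, adjusted p = 0.0151) in PC3 against BPH-1. In DU145 against BPH-1 they were HNRNPA3 (0.10), HNRNPD (1.63), HNRNPH1 (0.22), HNRNPK (0.55), HNRNPLL (1.04), HNRNPR (0.79), HNRNPU (0.94), HNRNPUL1 (-0.30), HNRNPUL2 (-0.32), SRSF1 (0.028), SRSF3 (0.60), SRSF5 (0.88), SRSF6 (1.11), SRSF7 (0.012) and SRSF9 (0.13). Some of these were called only after the correction. edgeR and DESeq2 on the recovered reads were planned but not run. HNRNPCL2, HNRNPCL3 and HNRNPCL4 are too shallow here for any comparison, and SRSF12 in PC3 against BPH-1.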
